A study of Mus musculus with 44 samples.

Results

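The distant contacts of the Slc25a37 promoter are the ligation junctions between this promoter and parts of its own chromosome that lie more than 1 Mb away. They were taken as all restriction fragments of chromosome 14 whose midpoint lies below position 68903000 or above position 70903000, around a viewpoint at 69903000 (coordinates of the deposited table, which the submitters' processing notes place on mouse build mm9). This gave 50079 of the 308806 restriction fragments in the table of this viewpoint, out of 53828 on chromosome 14, and 91488 of 520496 unique interactions. Counts were summed in 1 Mb bins, of which 122 hold distant fragments and 118 lie whole beyond the boundary. No gene annotation of this build was used here, so bins are named by position only and no sequence is shown.

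Slc25a37 encodes Mitoferrin-1, an iron importer of the inner mitochondrial membrane on which maturing red cells depend for haem synthesis. In chromosome conformation capture, chromatin is cross-linked with formaldehyde, cut and religated, so that DNA sequences close together in the nucleus become joined, and Capture-C then enriches for the joints of a chosen viewpoint fragment. Contacts far away on the same chromosome are generally explained by the folding of each chromosome into its own territory, within which active and inactive stretches tend to keep to themselves. DNA that was never cross-linked is free to ligate with any other fragment in solution, which makes the unfixed sample a baseline of random ligation.

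The cells were Ter-119+ primary erythroid cells sorted from spleen, taken from female C57BL/6 mice given 3 doses of phenylhydrazine 12 hours apart and killed after 5 days. Phenylhydrazine destroys red cells, and the spleen fills with red cell precursors in response. Aliquots were fixed with 0.5%, 1%, 2%, 3%, 4% or 5% formaldehyde or left unfixed (0%), digested with DpnII, and sequenced as 2 technical replicates per concentration after capture with oligonucleotides for the Slc25a37, α-globin and β-globin promoters. All libraries thus share the strain, sex, treatment and sort, and no p-value from them covers the spread between mice. The test of single bins, fixed against unfixed, measures the spread between technical replicates. Permutation tests of fixed against unfixed libraries pool the fixed concentrations, so their spread also holds differences between concentrations. Correlations with formaldehyde are tested over concentration means and do not use the spread between replicates. The trend of single bins with formaldehyde is fitted on the 12 fixed libraries one by one. It thus counts technical replicates as separate units, and its spread holds both their differences and departures from a straight line. The unfixed material was also handled differently, with homogenisation in the volume of the digestion and without the spin that followed in the fixed samples, so that this step and the lack of formaldehyde cannot be told apart. A second set of 18 libraries from the same kind of cells, fixed with 2% formaldehyde, compared LI-Capture-C and Tag-Capture-C at 200, 100 and 50 ng of 3C library, with 3 libraries each.

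The 14 fixation libraries held 18397 to 61802 unique interactions of this viewpoint, and those of 3% to 5% formaldehyde were the shallower ones (at most 27725). The widest 95% Wilson interval of a distant share was ± 0.589 percentage points, which covers counting error only. No label states a batch. The descriptions of the libraries of 0% to 2% and of 3% to 5% give library names of different form, and this split was used as a possible batch, with the unfixed samples in the first set. The duplicates of 1% formaldehyde stood apart from each other, with 39.0% and 57.3% of all interactions on chromosome 14, and their distant counts per bin differed by more than counting noise (chi-square p = 1.1e-17), as did those of 0.5% (p = 1.3e-05) and, narrowly, of 2% (p = 0.037). At the other concentrations the chi-square p was 0.097 or more.

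Single distant fragments were covered too thinly to be compared one by one. Of the distant fragments, 63.3% were counted once in all 14 libraries together, and the largest count of any of them in 1 library was 11. The 3 fragments with the most contacts lay close together, 1.12 Mb from the viewpoint. Fragment chr14:71021645-71023273 held 48 contacts, chr14:71024360-71024916 held 46 and chr14:71023568-71023944 held 37, all of them in fixed libraries and 0 in the unfixed ones. For this reason the values below are bin sums, shown as contacts per 100000 interactions of a library.

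Distant contacts made up a 4.79-fold larger share of the interactions in fixed than in unfixed cells, and most of this difference was there at the lowest formaldehyde concentration. In unfixed cells, distant contacts made up 4.17% and 4.39% of all interactions. At 0.5% formaldehyde they made up 17.5% and 15.1%, at 1% 20.2% and 24.8%, and at 2% 24.7% and 23.3%. The values were 21.1% and 20.1% at 3%, 20.5% and 20.6% at 4%, and 20.4% and 20.1% at 5%. Every fixed library thus lay above both unfixed ones. On the log2 scale the mean difference was 2.26 (exact two-sided permutation test, 12 libraries against 2, p = 0.011, the smallest that 91 regroupings can give, and the same after adjustment over 6 tests of this kind). Within the libraries of 0% to 2% alone the difference was 2.27 (exact permutation p = 0.0357, again the smallest possible), and with any single library left out, those of 1% included, it stayed between 2.22 and 2.30. With the 7 concentrations as units no p below 0.143 can be reached.

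Above 2% formaldehyde the share of all interactions did not rise further. Its mean was 24.0% at 2% and 20.2% at 5%, and over the 7 concentration means no relation with formaldehyde was detected (Pearson's r = 0.54, exact permutation p = 0.20, adjusted p = 0.25 over 5 relations, and Spearman's rho = 0.32, p = 0.50). Without the 4% and 5% means r was 0.67. The drop between 2% and 3% falls between the sets with library names of different form and cannot be told apart from that split.

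Among the contacts on chromosome 14 alone, distant contacts went the other way. They were 95.7% and 94.2% of chromosome 14 interactions in unfixed cells, where contacts within 1 Mb of the promoter made up 0.228% of the library on average. Per Mb this was still denser than the unfixed contacts with other chromosomes, at 38.9 and 38.8 per Mb and 100000 interactions. The share of distant contacts fell to a mean of 55.6% ± 0.994 at 0.5% formaldehyde, 47.6% ± 6.04 at 1%, 37.5% ± 3.40 at 2%, 28.8% ± 1.40 at 3%, 28.2% ± 0.205 at 4% and 27.1% ± 0.356 at 5% (SD, n = 2 each). The order of the 7 means followed formaldehyde without exception (Spearman's rho = -1, exact permutation p = 0.000397, adjusted p = 0.000992, Pearson's r = -0.90, p = 0.0046, adjusted p = 0.023, and r = -0.94 without 4% and 5%). Distant contacts therefore rose with fixation as a share of all interactions while contacts within 1 Mb rose more, to 54.5% of all interactions at 5%. Here, too, the step from 2% to 3% cannot be told apart from the split by library name.

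**Figure D1:**
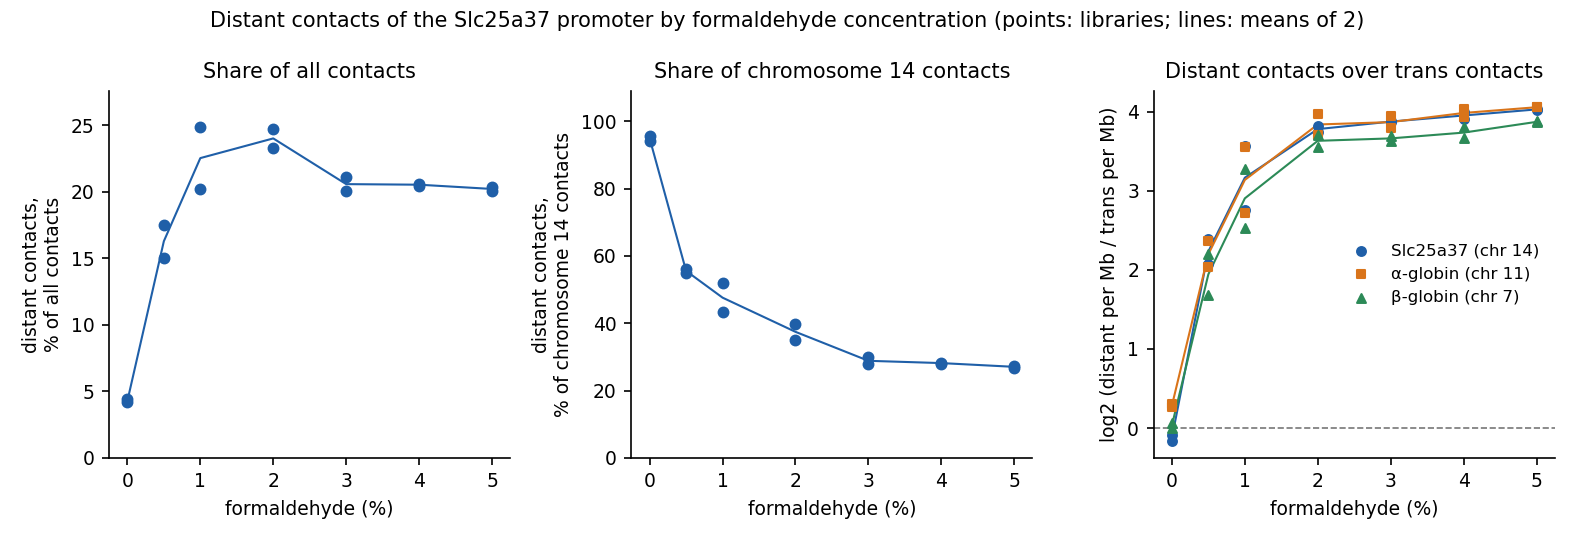
Distant contacts of the Slc25a37 promoter as a percentage of all interactions (left) and of chromosome 14 interactions (middle), and the log2 ratio of distant to trans contacts per Mb for 3 promoters (right), against formaldehyde in percent, with 1 point per library and lines through the means of 2. The share of all interactions lies at 4.17% and 4.39% without formaldehyde and between 15.1% and 24.8% with it, the share of chromosome 14 falls from 94.2% and 95.7% to a mean of 27.1%, and the ratio starts near 0 (dashed line, equal density) and ends at 4.03 for Slc25a37.

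A stricter baseline is the density of contacts, since random ligation would hit distant chromosome 14 as often per Mb as any other chromosome. In the unfixed libraries this was nearly so. They held 19.8 and 17.4 distant contacts per Mb and 22.2 and 18.5 contacts per Mb of the other chromosomes (trans), a log2 ratio of -0.17 and -0.088. By length, distant chromosome 14 makes up 4.66% of the distant and trans sequence together, close to its share of 4.28% ± 0.152 of all unfixed interactions (SD, n = 2). At 0.5% formaldehyde distant contacts were on average 4.70 times as dense as trans contacts, at 1% 8.97 times, at 2% 13.7 times, at 3% 14.7 times, at 4% 15.5 times and at 5% 16.3 times. The mean log2 ratio rose from -0.13 ± 0.055 (SD, n = 2) to 3.51 ± 0.69 (n = 12, range 2.07 to 4.03), a 12.4-fold difference (exact two-sided permutation p = 0.011, the smallest possible, adjusted p = 0.011). Within 0% to 2% the difference was 3.19 (exact permutation p = 0.0357). Unlike the share of all interactions, the density ratio rose at every step of formaldehyde (Spearman's rho = 1, exact permutation p = 0.000397, adjusted p = 0.000992, Pearson's r = 0.77, p = 0.019, adjusted p = 0.049, and r = 0.84 without 4% and 5%), while trans contacts per Mb and 100000 interactions fell from 38.9 and 38.8 in the unfixed libraries to 10.3 at 5%. Its step from 2% to 3% crosses the split by library name and cannot be told apart from it.

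The 1 Mb bins were much more even in the unfixed than in the fixed libraries, though in both they varied by more than counting error. Across the 118 whole bins the coefficient of variation was 0.373 and 0.392 in the unfixed libraries, where counting alone would give 0.224 and 0.239. In the fixed libraries it lay between 1.06 and 1.46. The 12 fullest bins held 16.7% and 17.4% of the distant contacts in the unfixed libraries, 39.8% and 35.1% at 0.5% formaldehyde and 40.9% to 46.2% at higher concentrations. Between libraries, the r-values of the bin profiles were 0.980 to 0.994 for the 6 pairs of fixed duplicates and 0.954 to 0.996 for the 60 pairs of fixed libraries of different concentrations, each over 118 bins of the same fragments. The unfixed pair gave 0.580, and unfixed with fixed libraries gave 0.531 to 0.633. Fixed libraries of different concentrations were thus about as alike as fixed duplicates. The unfixed libraries held 19.9 and 17.6 contacts per bin, and counting noise at this depth lowers their r-values, most of all for the unfixed pair. These r-values therefore cannot show whether an unfixed library resembles fixed ones as much as its own duplicate.

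**Figure D2:**
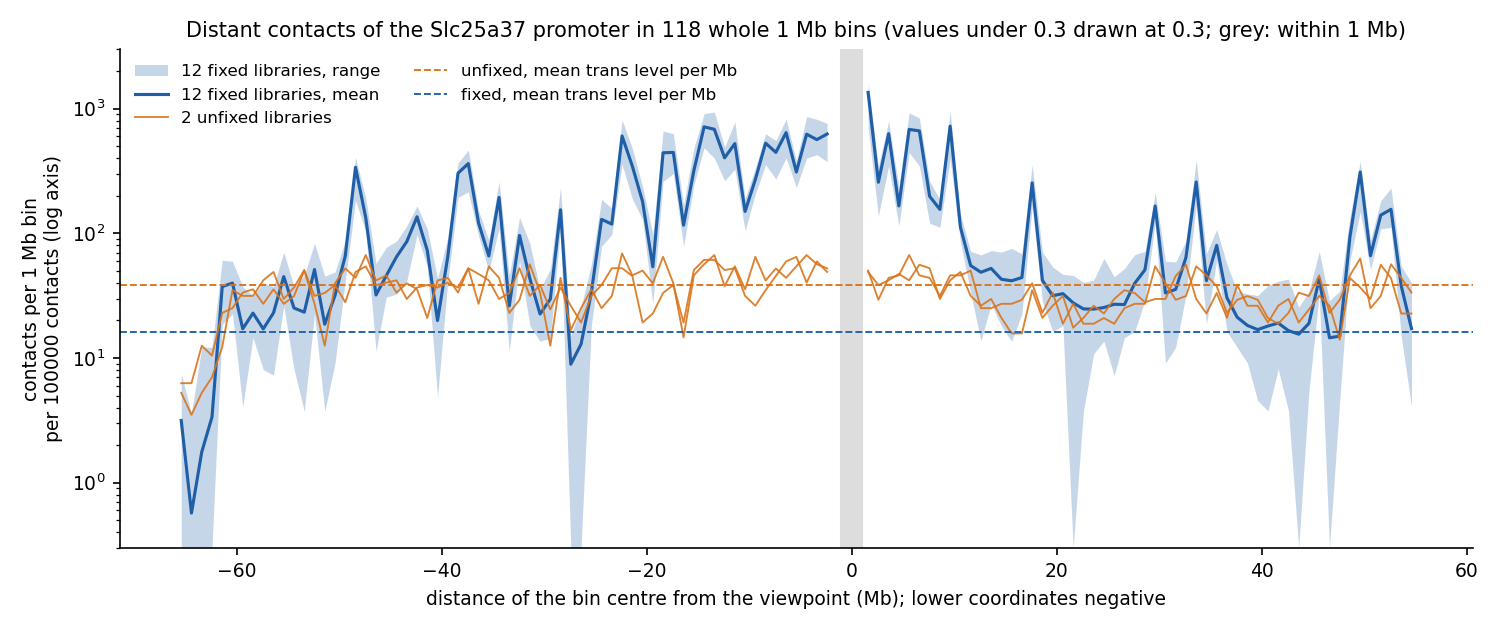
Contacts of the Slc25a37 promoter per 1 Mb bin and 100000 interactions (log axis) in 118 whole bins, against the distance of the bin centre from the viewpoint in Mb, for the 12 fixed libraries (blue line, mean, with their range shaded) and the 2 unfixed libraries (orange lines), with the mean trans level per Mb of both groups (dashed). The unfixed lines stay close to their trans level over most of the chromosome, while the fixed mean runs from 1352 in the nearest bin on the higher side to 0.570 in the lowest bin, with high bins up to 52.6 Mb away.

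Contacts fell with distance in fixed cells and hardly did so in unfixed cells. The slope of log2 contacts per bin on log2 distance, for which 0 means no decay, was -0.16 and -0.17 in the unfixed libraries. It was -0.78 and -0.70 at 0.5% formaldehyde, -0.81 and -0.85 at 1%, -0.89 and -0.84 at 2%, -0.86 and -0.84 at 3%, -0.85 and -0.87 at 4%, and -0.88 and -0.86 at 5%. The mean difference was -0.67 (exact two-sided permutation p = 0.011, the smallest possible, adjusted p = 0.011), and -0.65 within 0% to 2% (p = 0.0357). Bins 1 to 5 Mb from the viewpoint held 8.84% of the distant contacts in unfixed cells and 21.5% ± 1.88 at 0.5%, 24.8% ± 1.20 at 2% and 26.9% ± 0.347 at 5% formaldehyde (SD, n = 2), while bins more than 40 Mb away held 31.0% in unfixed cells and 10.8% ± 0.861 at 5%.

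The decay took a different course on either side of the promoter, which is described here without a test. The bands used start at 2 Mb. They leave out the nearest whole bin of the higher side, at 71 to 72 Mb, with a fixed mean of 1352 contacts per 100000 interactions. Towards lower coordinates, the fixed libraries held 606 ± 96.7 contacts per Mb at 2 to 5 Mb, 440 ± 63.4 at 5 to 10 Mb, 386 ± 75.6 at 10 to 20 Mb, 146 ± 18.2 at 20 to 40 Mb and 52.2 ± 3.22 beyond 40 Mb (per 100000 interactions, mean and SD, n = 12). Towards higher coordinates, they held 351 ± 64.9, 485 ± 91.3, 72.5 ± 7.43, 52.3 ± 4.41 and 65.6 ± 6.68 over the same bands. The level on the higher side was thus higher at 5 to 10 Mb than at 2 to 5 Mb and much lower at 10 to 20 Mb, where that on the lower side was only somewhat lower. In the unfixed libraries the means of the bands lay between 29.9 and 54.1 on both sides. At every band all 12 fixed libraries lay above both unfixed ones.

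**Figure D3:**
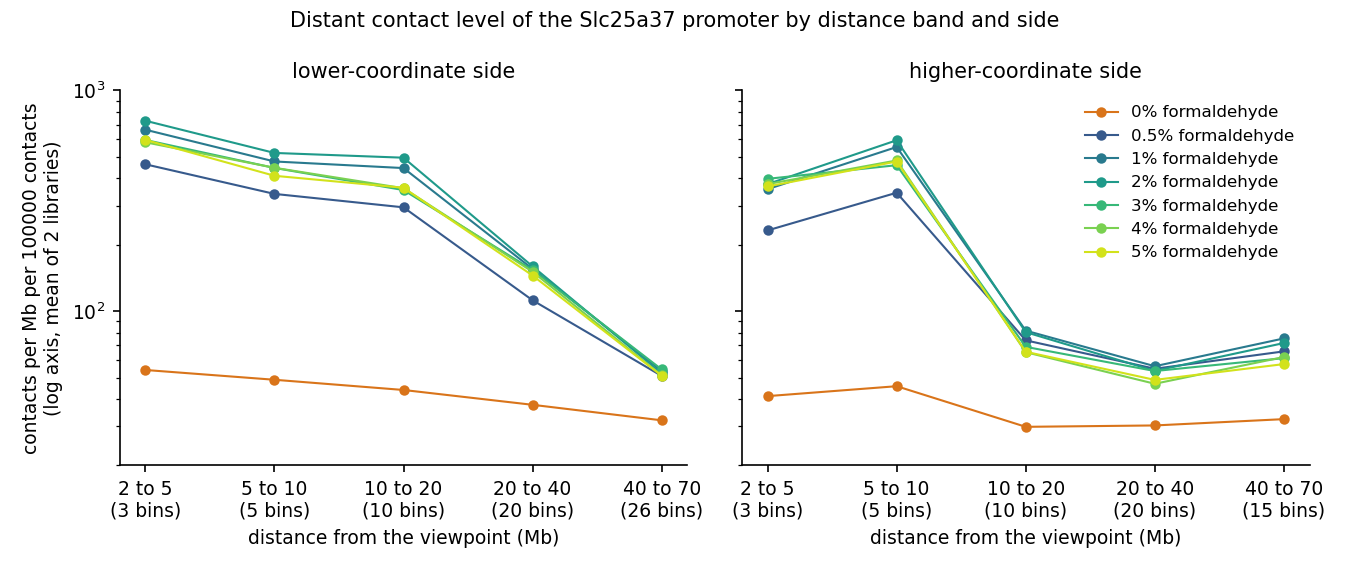
Mean contacts per Mb per 100000 interactions (log axis) in 5 bands of distance from the Slc25a37 promoter on the lower-coordinate (left) and higher-coordinate (right) side, with 1 line per formaldehyde concentration (mean of 2 libraries) and the number of 1 Mb bins under each band. All fixed lines lie above the unfixed line in every band, and at 10 to 20 Mb the fixed libraries hold 72.5 on average on the higher side and 386 on the lower side. The bands start at 2 Mb, so the fullest bin, at 71 to 72 Mb, is not shown.

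Per Mb of all distant sequence, the lower side held more contacts than the higher side in every library. The log2 ratio was 0.21 and 0.14 in unfixed cells and 0.40 ± 0.032 in fixed cells (SD, n = 12, range 0.37 to 0.49), a difference of 0.23 (exact two-sided permutation p = 0.011, the smallest possible, adjusted p = 0.011, and 0.24 within 0% to 2%, p = 0.0357). This size depends on where the distant region starts. With a boundary of 2 Mb the difference was 0.48, and with 5 Mb it was 0.51, since the fullest stretch on the higher side lies next to the 1 Mb boundary. There, the first 100 kb inside the distant region held 366 contacts per 100000 in the fixed libraries and the last 100 kb before it held 430, against 31.0 and 27.8 at the same distances on the lower side. The boundary therefore cuts through a stretch of high contact on the higher side.

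For the test of single bins, all 1 Mb bins of the table were fitted together with edgeR's quasi-likelihood test, with the total of each library as its size and Benjamini-Hochberg adjustment. Of the 122 distant bins, 67 were higher in fixed than in unfixed cells at an adjusted p under 0.05 and 10 were lower, when every bin was tested. Over all 2585 bins 3.09% were called higher and 83.9% lower, since trans contacts make up less of a fixed library, and the median log2 change was 0.81 for the distant bins against -1.95 for the trans bins. Of the distant bins, 119 had a signed log2 change above the median of the trans bins and 97 above their 90th percentile (-0.58). Only bins with a mean count of at least 10 were to be tested by the design, and 90 of the 122 distant bins met this. As 12 of the 14 libraries are fixed, this filter favours bins that are high in fixed cells. Among the 710 bins tested in this way, 10.8% were called higher and 51.4% lower, and the distant bins had 67 and 1 of these calls. Scaling decides the sign of small changes. With TMM factors the median of all bins tested moved from -0.64 to -0.075, and 80 distant bins were called higher and 1 lower (background 20.4% and 16.5%). With DESeq2 71 were called higher and 0 lower (background 13.1% and 3.38%, with 0 lower also at an unadjusted p under 0.05).

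The calls followed the side and the distance. Within 20 Mb, all 18 whole bins of the lower side and 17 of 19 on the higher side were called higher with every bin tested, with a median log2 change of 3.21 on the lower and 1.81 on the higher side. Beyond 20 Mb, 21 of 46 bins were called higher and 8 lower on the lower side (median 0.50), and 9 of 35 higher and 1 lower on the higher side (median 0.15). Without a test, every fixed library lay above both unfixed ones in 56 of the 122 bins and below both in 3, against 2.32% and 45% of all bins of the table.

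**Figure D4:**
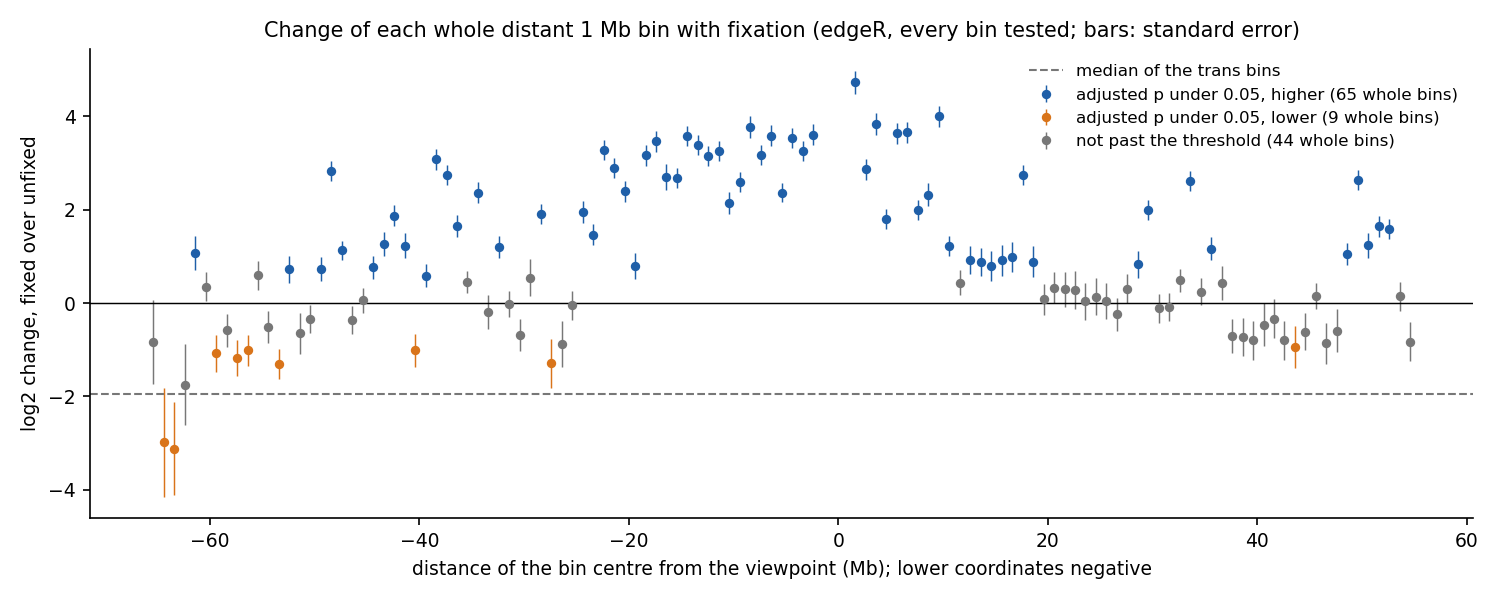
Log2 change of contacts from unfixed to fixed cells in each of the 118 whole distant bins (edgeR, every bin tested, bars show the standard error), against the distance of the bin centre from the Slc25a37 promoter in Mb. Blue marks the 65 bins called higher, orange the 9 called lower and grey the 44 not called, and the dashed line is the median of the trans bins (-1.95), above which nearly all distant bins lie.

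The fullest and most changed whole bin was the first one on the higher side, at 71 to 72 Mb (chr14:71000001-72000000). It held 49.0 and 50.2 contacts per 100000 in the unfixed libraries and 706, 1460 and 1615 (lowest, median and highest) in the 12 fixed ones. All fixed libraries lay far above the unfixed ones, and the log2 change was 4.73 ± 0.25 (SE, edgeR adjusted p = 8.5e-77). Within it, the first 100 kb (chr14:71000001-71100000) held 2083 fixed contacts against 9 unfixed ones. The first whole bin on the lower side, at 67 to 68 Mb, held 49.0 and 52.3 contacts per 100000 unfixed and 376 to 761 fixed (median 657), with a log2 change of 3.61 ± 0.23 (edgeR adjusted p = 9.4e-54). Here 942 of the 2575 fixed contacts fell in 100 kb (chr14:67600001-67700000).

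High bins on the higher side alternated with lower ones up to 80 Mb. The bin at 79 to 80 Mb, 9.60 Mb from the promoter, held 42.0 and 46.1 contacts per 100000 unfixed and 396 to 956 fixed (median 741), a log2 change of 4.00 ± 0.24 (edgeR adjusted p = 7.9e-61). That at 73 to 74 Mb went from 42.0 and 44.0 to between 347 and 795 (median 666, log2 change 3.84 ± 0.23). The neighbours at 75 to 76 Mb and 76 to 77 Mb had fixed medians of 629 and 677 and log2 changes of 3.64 ± 0.23 and 3.66 ± 0.23. In each of these bins every fixed library was above both unfixed ones.

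On the lower side the high stretch reached further. The bin at 55 to 56 Mb, 14.4 Mb away, held 61.3 and 56.5 contacts per 100000 unfixed and 485 to 913 fixed (median 679), a log2 change of 3.58 ± 0.22 (edgeR adjusted p = 1.7e-54), and its neighbour at 56 to 57 Mb went from 61.3 and 67.0 to between 402 and 940 (median 647, 3.39 ± 0.22). Both are among the 5 fullest bins, and of these they lie farthest away. The bin at 61 to 62 Mb, 8.40 Mb away, held fewer contacts in fixed cells (median 530, range 356 to 630), but with 35.0 and 41.9 in unfixed cells its log2 change of 3.77 ± 0.24 was among the 5 largest. The order by change therefore differs in part from the order by level.

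The 5 bins with the lowest signed log2 change among the whole bins that passed the count filter lay far away on either side. The bin at 16 to 17 Mb, 53.4 Mb from the promoter, had the lowest, with 50.8 and 50.2 contacts per 100000 unfixed and 3.73, 20.5 and 45.9 (lowest, median and highest) fixed. All fixed libraries lay below both unfixed ones, and the log2 change was -1.31 ± 0.32 (edgeR adjusted p = 0.00014, and -0.75 with TMM factors, adjusted p = 0.042, but adjusted p = 0.19 with DESeq2 and 0.25 with duplicates summed). In the bins at 15 to 16, 19 to 20, 23 to 24 and 100 to 101 Mb the log2 changes were -0.51, -0.34, -0.36 and -0.11, none past the threshold, and with TMM factors or DESeq2 all 4 had the opposite sign. In those 4 bins the ranges of fixed and unfixed libraries overlapped. The filter left out 9 further bins that were called lower with every bin tested, among them 12 to 13 Mb (-1.18) and 42 to 43 Mb (-1.29), which were named after their values were seen. Still lower levels were measured near the end of the chromosome at 4 to 8 Mb, where 0.570 to 3.36 contacts per 100000 were counted in fixed cells and 4.89 to 8.91 in unfixed cells, and from the globin promoters, too, few contacts were counted at 5 to 6 Mb (13 and 8 in the 12 fixed libraries).

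More than 20 Mb away, fixed contacts were high in single bins and in short runs of bins. The 4 fullest per side were chosen for description after the values had been seen. At 47 to 48 Mb, 22.4 Mb from the promoter, the unfixed libraries held 52.5 and 69.1 contacts per 100000 and the fixed ones 356 to 813 (median 629), about the level of the bins within 5 Mb. The bin beside it at 48 to 49 Mb is also among the 4 fullest, with 45.5 and 46.0 unfixed and 189 to 482 fixed (median 363), and the bins on either side of this pair had fixed means of 119 and 180. At 32 to 33 Mb the values were 52.5 and 52.3 unfixed and 215 to 466 fixed (median 382), beside fixed means of 304 at 31 to 32 Mb and 121 at 33 to 34 Mb. At 21 to 22 Mb, 48.4 Mb away, they were 49.0 and 44.0 unfixed and 184 to 408 fixed (median 369), between neighbours with fixed means of 65.8 and 133. The bin at 21 to 22 Mb thus stood alone, and the others were parts of runs of 2 high bins.

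High bins were also measured on the higher side. The bin at 119 to 120 Mb, 49.6 Mb from the promoter, held 36.8 and 62.8 contacts per 100000 unfixed and 149 to 380 fixed (median 323), a log2 change of 2.64 ± 0.22 (edgeR adjusted p = 2.4e-31), against fixed means of 94.3 and 66.2 in the bins beside it. Of its fixed mean of 311, 100 kb (chr14:119100001-119200000) held 121, against 5.25 and 6.28 per 100000 unfixed. In sum this was 485 contacts over the 12 fixed libraries and 6 over both unfixed ones. The bin at 103 to 104 Mb held 29.8 and 54.4 unfixed and 169 to 386 fixed (median 254), between neighbours of 64.1 and 41.8, and that at 99 to 100 Mb held 29.8 and 54.4 unfixed and 123 to 213 fixed (median 165), between neighbours of 51.0 and 33.3. The bin at 122 to 123 Mb, 52.6 Mb away, held 43.8 and 56.5 unfixed and 112 to 231 fixed (median 140), beside fixed means of 140.0 at 121 to 122 Mb and 37.8 at 123 to 124 Mb. In each of the 8 bins so chosen all 12 fixed libraries were above both unfixed ones. The level at 119 to 120 Mb was thus above the mean of 72.5 for the 10 to 20 Mb band of the same side.

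Between the high bins, 2 long stretches stayed near their unfixed level on average. From 3 to 20 Mb the unfixed libraries held 26.1 and 23.9 contacts per Mb and the fixed ones 16.7 to 29.6 (median 20.5), and from 104 to 118 Mb they held 25.6 and 30.2 unfixed and 18.9 to 40.2 fixed (median 25.3). Single bins within them went either way, with means of 35.5 unfixed and 80.1 fixed at 105 to 106 Mb, and 50.5 and 23.3 at 16 to 17 Mb. Their levels were also not constant over formaldehyde. At 0.5%, 2% and 5% the means were 27.3, 19.3 and 18.6 from 3 to 20 Mb, and 37.2, 23.9 and 22.2 from 104 to 118 Mb. From 80 to 98 Mb the level was low too, but all 12 fixed libraries lay above both unfixed ones, with 27.1 and 27.9 unfixed and 45.2 to 60.8 fixed (median 53.5, a 1.91-fold difference of means). This stretch holds a single high bin at 87 to 88 Mb, which was named after its values were seen. Its means were 37.4 unfixed and 254 fixed (log2 change 2.74 ± 0.23, edgeR adjusted p = 2.3e-30). By contrast, 45 to 68 Mb held 43.9 and 48.3 unfixed and 273 to 514 fixed (median 393). The limits of these stretches were set after the profile had been seen, and no test was made on them. Set against the trans contacts of the same library, even the lowest stretches gained. From 3 to 20 Mb the log2 ratio to the trans density was -0.64 in unfixed and 0.48 ± 0.38 in fixed cells (SD, n = 12, lowest -0.14), and from 104 to 118 Mb it was -0.48 and 0.77 ± 0.29 (lowest 0.31). From 71 to 80 Mb it went from 0.20 to 5.13 ± 0.80. The stretches that were low in fixed cells were also the lower ones in unfixed cells, by 0.48 to 0.64 log2 units below the trans density, and whether the number of DpnII sites or the mappability of these stretches moves with this was not tested.

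Among the fixed libraries, the level of the high stretches rose from 0.5% to 2% formaldehyde and not beyond. From 71 to 80 Mb the mean of 2 libraries was 361 contacts per Mb and 100000 interactions at 0.5%, 576 at 1%, 626 at 2%, 550.3 at 3%, 557 at 4% and 551 at 5%. From 45 to 68 Mb it was 303, 450.5, 497, 388, 392 and 383. The drop from 2% to 3% in both stretches falls at the split by library name and cannot be told apart from it. A straight line over percent formaldehyde, as fitted in the design, describes such a course poorly, and a low slope does not mean a constant level. In an edgeR fit of the slope on percent formaldehyde among the 12 fixed libraries, 88 distant bins passed the count filter, of which 3 were called higher and 5 lower, against 0.879% higher and 35.6% lower among the 455 bins tested. The 3 rising bins were those at 27 to 28, 35 to 36 and 72 to 73 Mb, with log2 changes of 0.16, 0.15 and 0.15 per percent, and the 5 falling ones, at 26 to 27, 88 to 89, 91 to 92, 97 to 98 and 104 to 105 Mb, had changes between -0.20 and -0.25. These 8 bins were named after their values were seen. Of the fullest bins, 71 to 72 Mb changed by 0.11 ± 0.062 per percent (adjusted p = 0.13) and 55 to 56 Mb by 0.0068 ± 0.058 (adjusted p = 0.94). The calls moved with the scaling and with the split by library name. With TMM factors 22 distant bins were called higher and 0 lower (background 5.49% and 2.2%, and 0 lower also at an unadjusted p under 0.05), with DESeq2 31 and 0 (background 7.91% and 0%), with every bin tested 6 and 18 of 122 (background 0.271% and 68.7%), and with that split as a term 0 and 0 (background 0% and 0.22%, and 5 and 3 at an unadjusted p under 0.05). The split runs along percent formaldehyde, so the fit with it leaves little of the slope to test. Its 0 calls therefore do not show that the slopes are absent. The number called higher was 0 without the first 0.5% library, 1 without the second, 7 without the second 1% library and 5 without the first 5% library, and the number called lower was 3, 2 and 1 without the first library of 0.5% and 1% and the second of 4%.

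The 3 promoters were captured from the same libraries, so the rise of distant contacts could be compared between them. In unfixed cells the log2 ratio of distant to trans density was -0.13 ± 0.055 for Slc25a37, 0.28 ± 0.025 for α-globin on chromosome 11 and 0.033 ± 0.039 for β-globin on chromosome 7 (SD, n = 2), and in fixed cells it was 3.51 ± 0.69, 3.51 ± 0.72 and 3.29 ± 0.73 (n = 12). The change with fixation was larger for Slc25a37 by 0.40 against α-globin and by 0.37 against β-globin (exact two-sided permutation of the per-library differences, p = 0.011 for each, the smallest possible, adjusted p = 0.011, and p = 0.0357 within 0% to 2%, where the differences were 0.41 and 0.39). Against α-globin the difference lay wholly in the unfixed libraries, since the fixed means of the 2 promoters were 0.0081 apart. The slopes with distance steepened at all 3 promoters, from -0.16 to -0.83 at Slc25a37, from 0.097 to -0.44 at α-globin and from -0.099 to -0.74 at β-globin.

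The same chromosome 14 bins were also seen in trans from the globin promoters. The sums over the 12 fixed libraries, bin by bin, correlated with those of Slc25a37 with r = 0.63 (Spearman's rho = 0.76) for α-globin and r = 0.84 (rho = 0.84) for β-globin over 118 bins, and with r = 0.77 and 0.86 over the 81 bins beyond 20 Mb. In the unfixed libraries these r-values were 0.77 and 0.73 over the 118 bins. These are descriptions across bins, which share libraries, fragments, depth and base composition between viewpoints and are not independent replicates. The 4 bins with the most α-globin contacts in fixed cells were 21 to 22, 32 to 33, 31 to 32 and 47 to 48 Mb, with 779, 571, 530 and 498 contacts in sum, against 110, 122, 104 and 114 in the 2 unfixed libraries. Of these, 3 are among the 4 fullest bins of Slc25a37 beyond 20 Mb on this side. Per 100000 trans interactions of α-globin, the bin at 21 to 22 Mb went from 47.2 to 171, while the fullest bin of Slc25a37, at 71 to 72 Mb, went from 64.3 to 100.5. From 71 to 80 Mb the log2 ratio of α-globin contacts to its own trans density was 0.16 in unfixed and 0.18 in fixed cells, and from 104 to 118 Mb it was -0.37 and -1.23. For β-globin these values were 0.16 and 0.41, and -0.40 and -0.79.

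**Figure D5:**
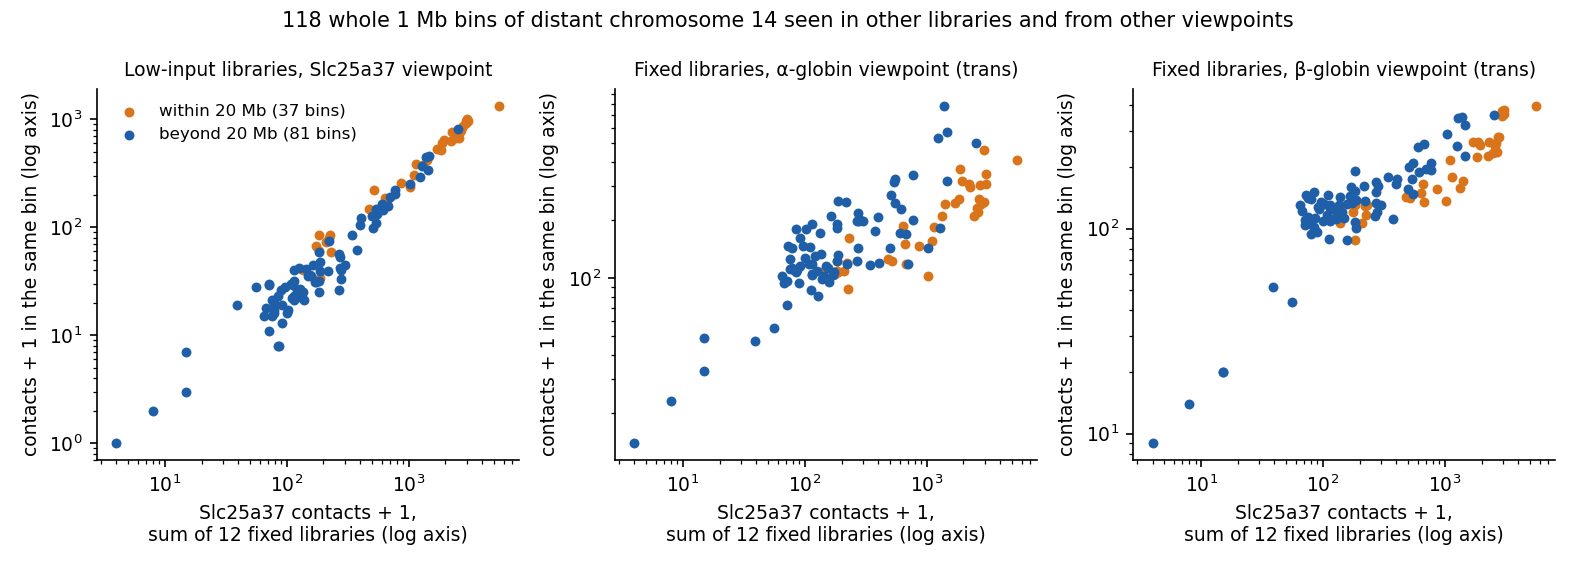
Contacts plus 1 in each of the 118 whole distant bins (log axes) in the 18 low-input libraries of the Slc25a37 promoter (left) and from the α-globin (middle) and β-globin (right) promoters in the 12 fixed libraries, against the Slc25a37 contacts plus 1 summed over the 12 fixed libraries, with bins within 20 Mb in orange and beyond it in blue. The low-input points follow 1 line (r = 0.989), and the α-globin points beyond 20 Mb rise to 779 contacts in the bin at 21 to 22 Mb.

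The 18 low-input libraries, which were made separately and with other protocols, held 24531 distant contacts of the Slc25a37 promoter. Their bin profile followed that of the fixed libraries closely, with r = 0.989 (rho = 0.961) over the 118 whole bins and r = 0.984 beyond 20 Mb, and that of the unfixed libraries less so (r = 0.643 and 0.545). LI-Capture-C and Tag-Capture-C profiles correlated with r = 0.992. The far bins were high here as well. With LI-Capture-C and Tag-Capture-C the bin at 47 to 48 Mb held 389 and 432 contacts, that at 21 to 22 Mb 227 and 221, and that at 119 to 120 Mb 190 and 177, whereas the bin at 16 to 17 Mb held 6 and 10.

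The share of distant contacts was somewhat higher with Tag-Capture-C than with LI-Capture-C at each input, and the gap was widest at 50 ng. At 200 ng, LI-Capture-C gave 28.0%, 28.7% and 27.8% and Tag-Capture-C 29.2%, 30.7% and 29.2%. At 100 ng they gave 26.6%, 26.6% and 26.8%, and 27.1%, 28.1% and 28.3%. At 50 ng LI-Capture-C gave 23.8%, 23.4% and 22.7% and Tag-Capture-C 28.8%, 28.2% and 28.6%. The ranges did not overlap at any input, and the log2 differences were 0.077, 0.058 and 0.29 (exact two-sided permutation test, p = 0.1 at each input, which is the smallest that 3 libraries against 3 can give, adjusted p = 0.1). With LI-Capture-C the share was lower at 50 ng than at 200 ng in every library, and with Tag-Capture-C it was also lower in every library, by less. The Tag-Capture-C share did not follow the order of input, with means of 29.7% at 200 ng, 27.8% at 100 ng and 28.5% at 50 ng. At 50 ng the libraries held 1900 to 2639 interactions, and the widest Wilson interval was ± 1.90 percentage points.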

How the data were processed

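The authors mapped the reads and counted, per viewpoint, library and DpnII fragment, the unique interactions after removal of PCR duplicates. The submitters' processing notes name Trim Galore, Bowtie and build mm9, without versions. The deposited counts are raw, and interactions of the duplicated globin promoters were pooled. How duplicates were filtered sets these counts, and reads were not examined here.

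Counts of fragments up to 100 kb were summed per library and bin with pandas 2.3.3 and NumPy 2.4.6 under Python 3.11.15, tested with SciPy 1.17.1 and plotted with matplotlib 3.10.9. Profiles were scaled to 100000 interactions. Trans contacts leave out chromosomes Y and M, and density is contacts per Mb between the first and last listed fragment of a chromosome. In the low-input table trans positions were not used. The slope with distance is from a Poisson regression over whole bins. Values per library were tested with exact permutation tests, and bins with edgeR 4.0.16 (quasi-likelihood, R 4.3.3) or DESeq2 1.42.0, called at an adjusted p under 0.05. Scripts were tested on simulated data.

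The rule named the 5 whole tested bins with the highest and the 5 with the lowest signed change, the 5 fullest, the first whole bin on each side, and the 3 fragments with the most contacts. Genes in bins could not be named without an annotation of this build. The members and lists were chosen with earlier results of these data known. No pairing of samples by replicate number was detected (r of duplicate deviations between concentrations from -0.32 to 0.19 over 21 pairs, 3 of them above 0.1). Counting noise in these deviations can hide a pairing, so the check cannot exclude one.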

Additional observations from a re-analysis of the deposited data

Results flagged for a closer look

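The rise of distant over trans contacts with fixation differed between promoters captured from the same libraries, which the test of the difference itself picked out. On the log2 scale the change of the density ratio was larger at Slc25a37 by 0.40 than at α-globin and by 0.37 than at β-globin (exact two-sided permutation test, p = 0.011 each, the smallest that 91 regroupings of 12 fixed and 2 unfixed libraries can give). Against α-globin, the per-library difference (Slc25a37 minus α-globin) was -0.47 and -0.35 in the unfixed libraries and between -0.15 and 0.081 in the fixed ones. Against β-globin it was -0.17 and -0.15 in the unfixed and between 0.12 and 0.38 in the fixed libraries. With a boundary of 5 Mb the values were 0.29 and 0.38. Both rest on 2 unfixed libraries, and a cause was not tested.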

How the results depend on the processing

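Of 586 changes of a setting over all results, 509 left direction and side of the threshold as they were, or a count within 1.5 times. As a share of chromosome 14 interactions, distant contacts reversed, with a log2 difference of -1.40 between fixed and unfixed cells and r = -0.90 with formaldehyde. Trans contacts, which make up most of an unfixed library, are left out of that total. With the 7 concentration means as units, the differences of 2.26, 3.63, -0.67, 0.23, 0.40 and 0.37 (distant share, density ratio, slope, side ratio, density ratio against α- and β-globin) had an exact permutation p = 0.143, the smallest possible. With single libraries left out they ran from 2.22 to 2.30, 3.58 to 3.76, -0.68 to -0.67, 0.19 to 0.26, 0.35 to 0.46 and 0.36 to 0.38, with exact permutation p = 0.0769, the smallest possible, without either unfixed library and 0.013 otherwise. The r of the share with formaldehyde ran from 0.52 to 0.57. The low-input differences ran from 0.053 to 0.091 at 200 ng, 0.046 to 0.077 at 100 ng and 0.28 to 0.31 at 50 ng. Counts of distant bins called moved with the construction of the test. For fixed against unfixed (67 higher, 1 lower) they were 27 and 48 with distant contacts as library size (over all bins tested, 4.08% higher and 93.8% lower), 37 and 0 of 37 with a mean count of at least 50 (here all 39 bins tested were higher, so the count says nothing of distant bins), 39 and 5 in 2 Mb bins (3.98% and 88.2%), 102 and 0 in 0.5 Mb bins (46.3% and 0.368%), and 55 to 67 and 0 to 2 with single libraries left out. The number lower was 0 with DESeq2, 10 with every bin tested, 0 with duplicates summed (0.563% over all bins) and 4 with 0% to 2% only (55.8%). For the trend (3 higher, 5 lower) they were 22 and 0 with TMM factors, 12 and 12 with distant contacts as library size (2.86% and 40% over all bins), 31 and 0 with DESeq2, 6 and 18 with every bin tested, 0 and 0 with a mean count of at least 50 (2.33% and 0%) or with the split by library name (a possible batch) as a term (0% and 0.22%), 1 and 15 in 2 Mb bins (0.306% and 83.3%), and 0 to 7 and 1 to 6 with single libraries left out, with 0 lower in 0.5 Mb bins (1.24%) and 1 higher with duplicates summed (0.22%). With TMM factors and DESeq2 the log2 changes at 15 to 16, 19 to 20, 23 to 24 and 100 to 101 Mb reversed to 0.047 and 0.034, 0.22 and 0.21, 0.20 and 0.19, and 0.45 and 0.43, and at 100 to 101 Mb the change ran from -0.32 to 0.098 with single libraries left out, above 0 without the second unfixed one. Permutation within replicate numbers (replicate block) gave p = 0.0204 for the 6 differences and 0.25 for the low-input ones, the smallest possible, and with the replicate number as a block 67 bins were called higher and 1 lower with fixation and 3 and 5 in the trend, so that it changed no call of these results. The cause of these changes was not tested, and thin bins limit the far stretches, where 1 contact is worth 1.62 to 5.44 per 100000.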
